A study of Mus musculus with 12 samples.

Results

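The 7 genes described here encode mouse immunity-related GTPases (IRG proteins): Irgm1, Irgm2, Igtp, Iigp1, Tgtp1, Tgtp2 and Ifi47. They were taken by symbol from a table of 29428 genes, and all 7 were among the 16127 genes tested, those with at least 0.5 TPM, a length-scaled measure of transcript abundance, in at least 3 libraries. The RNA came from STHdhQ7 and STHdhQ111 cells, immortal mouse striatal lines whose huntingtin alleles carry 7 (STHdhQ7/Q7, genotype normal) or 111 (STHdhQ111/Q111) glutamine repeats. Cells of each line were left untreated (Q7-C, Q111-C) or were kept for 24 h with 100 ng/ml murine IFNγ together with 5 µg/ml LPS (Q7-T, Q111-T), and poly(A) RNA was sequenced from 3 libraries per group, 12 in all. Both agents were always given together, so their separate effects cannot be told apart. Each genotype is represented by 1 line, so genotype and line cannot be told apart either. The 3 libraries of a group are described as biological replicates, but whether they came from separate cultures is not given in the sources used here, so the p-values measure the spread between these libraries, which may be technical.

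Estimated counts summed to between 57505990 and 96417834 per library. Q7-T replicate 2 stood apart from its group: the 100 most abundant genes took 47.4% of its TPM, and the library nearest to it was Q7-C replicate 1, not another Q7-T library. Q7-C replicate 1 (45.8%) and Q111-T replicate 2 (38.5%) also had the highest such share in their groups, and results that change without these libraries are given both ways. Of the markers of the labelled striatal neuronal identity, 3 of 6 medium spiny neuron genes in the table passed the filter on low values, and their summed level was between 6.65 and 18.7 TPM in all libraries. Pan-neuronal markers, of which 2 of 5 passed the filter, summed to between 22.3 and 27.5 TPM in untreated and between 58.5 and 86.3 in treated Q7 cells, and to between 8.73 and 11 and between 28.9 and 32.4 TPM in Q111 cells. The sum moved with Tubb3, whose group mean went from 16.9 to 74.6 TPM in Q7 and from 3.91 to 24.7 TPM in Q111 cells, while the other marker that passed, Map2, went from 7.93 to 2.13 TPM and from 5.90 to 5.61 TPM. Mesenchymal markers were far more abundant, at 4243 to 4838 TPM in untreated and 3285 to 3713 in treated Q7 cells, and at 3671 to 3829 and 1502 to 1622 TPM in Q111 cells. Most of that sum was Vim, at 2493 TPM in Q7-C and 2462 in Q111-C, and in Q7 cells also Acta2, at 1670 TPM in Q7-C and 43.7 in Q111-C. Between the untreated lines Col1a1 went the other way, with 265 TPM in Q7-C and 791 in Q111-C, as did Col1a2 (14.6 and 250), Col3a1 (27.7 and 136) and Pdgfrb (39.2 and 70.0). Astrocyte markers, of which 2 of 6 passed the filter, summed to at most 1.98 TPM in Q7 cells, to between 9.01 and 11.1 TPM in Q111-C and to between 4.16 and 5.24 TPM in Q111-T, where the mean of Slc1a3 was 2.75 TPM after 9.86 TPM in Q111-C and that of Aldh1l1, the other marker that passed, was 1.32 TPM after 0.0384. The part of these shifts in the results below was not tested. IRG genes are also strongly expressed by macrophages and microglia, so the markers of these cells were examined as well. Ptprc was at 0 in 11 of 12 libraries, Adgre1 in 11, Itgam in 9 and P2ry12 in 8. Csf1r was above 0 in every library, with group means from 0.128 to 0.361 TPM, highest in Q111-T. Of 6 markers, 1, the lysosomal gene Cd68, passed the filter. The summed macrophage or microglia markers ranged from 5.93 to 8.45 TPM without and from 8.81 to 15.3 with treatment in Q7 cells, and from 14.5 to 16.9 without and from 40.8 to 58.0 with treatment in Q111 cells, most of it Cd68.

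IRG proteins are large GTPases that interferon-γ induces in many mouse cell types. They act in cell-autonomous defence: effector members coat the membrane of vacuoles that hold intracellular parasites or bacteria and help to break it open. The family is divided by the phosphate-binding loop of the GTPase domain. In effector (GKS) members this loop carries the usual lysine, while in regulatory (GMS) members a methionine takes its place, and regulatory members sit on the cell's own membranes and keep effectors there inactive. Promoters of genes that interferon-γ induces often hold gamma-activated sequences (GAS) and interferon-stimulated response elements (ISRE), and interferon regulatory factors such as IRF1 bind the latter.

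The loop was located in the translated GENCODE M21 coding sequences, and each of the 7 proteins held 1 match, of GMS type in Irgm1, Irgm2 and Igtp and of GKS type in Iigp1, Tgtp1, Tgtp2 and Ifi47. The coding bases of the loop are shown for the 6 genes on chromosome 11 because they define the split used below; capitals mark the codon for methionine (ATG) or lysine (AAG).
Irgm1: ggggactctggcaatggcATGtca
Irgm2: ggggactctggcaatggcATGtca
Igtp: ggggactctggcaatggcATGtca
Tgtp1: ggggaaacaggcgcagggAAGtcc
Tgtp2: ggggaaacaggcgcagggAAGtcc
Ifi47: gggcagtctgggactggcAAGtcc
The 3 GMS genes shared the same 24 bases, and so did Tgtp1 and Tgtp2. Over the whole protein, Tgtp1 and Tgtp2 were identical in all 415 aligned residues. Irgm2 and Igtp were identical in 61.0% of aligned residues, other pairs of 1 type in 40.9% to 50.1%, and pairs of a GMS with a GKS protein in 31.9% to 34.7%.

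The genes other than Iigp1 lie on chromosome 11 in GRCm38, the build of the deposited table. Irgm1 (chr11:48861968-48871683, minus strand), Tgtp1 (chr11:48985327-48994172, minus), Tgtp2 (chr11:49057194-49064206, minus) and Ifi47 (chr11:49076587-49096974, plus) form one group, and Igtp (chr11:58199556-58207591, plus) and Irgm2 (chr11:58199618-58222782, plus) a second one. The neighbours are not fully separate units for counting. Of all 100-base stretches of its transcripts, Tgtp1 shared 73.1% with another gene and Tgtp2 76.8%, almost all with each other, so how their reads were divided is uncertain and both genes are also given as a sum. Igtp and Irgm2 overlap on the same strand, with 162 exonic bases in common, and shared 5.16% and 3.01% of their 100-base stretches. Ifi47 shared 0.561%, and Irgm1 and Iigp1 shared none.

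RefSeq promoter windows on GRCm38.p6, from 250 bases before to 50 after the start of transcription, were matched for 6 of the 7 genes. Both strands were searched for GAS (TTCNNNGAA) and ISRE (GAAANNGAAA). The 120 bases before the start are shown for the 5 genes with a match, because 4 of them share one arrangement; capitals mark the matches.
Irgm1: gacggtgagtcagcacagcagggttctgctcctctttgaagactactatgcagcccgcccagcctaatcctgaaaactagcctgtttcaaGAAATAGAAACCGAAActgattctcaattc
Irgm2: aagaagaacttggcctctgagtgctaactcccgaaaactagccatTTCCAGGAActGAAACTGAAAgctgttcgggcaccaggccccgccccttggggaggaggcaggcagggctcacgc
Igtp: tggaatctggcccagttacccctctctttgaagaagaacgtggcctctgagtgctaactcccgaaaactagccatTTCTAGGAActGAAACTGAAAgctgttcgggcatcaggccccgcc
Tgtp1: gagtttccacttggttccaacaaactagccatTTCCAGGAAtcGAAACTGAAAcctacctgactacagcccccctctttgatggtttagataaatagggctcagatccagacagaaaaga
Tgtp2: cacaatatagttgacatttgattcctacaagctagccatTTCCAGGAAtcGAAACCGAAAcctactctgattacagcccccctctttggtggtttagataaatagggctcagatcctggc
These stretches are chr11:48871421-48871540 (minus strand) for Irgm1, chr11:58214857-58214976 (plus) for Irgm2, chr11:58199436-58199555 (plus) for Igtp, chr11:48992247-48992366 (minus) for Tgtp1 and chr11:49064213-49064332 (minus) for Tgtp2. In Irgm2, Igtp, Tgtp1 and Tgtp2 a GAS match was followed after 2 bases by an ISRE match, ending between 25 and 68 bases before the start. Around these matches the stretches of Irgm2 and Igtp are nearly alike, and so are those of Tgtp1 and Tgtp2. The 4 genes therefore cannot be counted as separate occurrences of the arrangement. Irgm1 held 2 ISRE matches that overlap each other and no GAS match, and neither word occurred in the Ifi47 window. Among all 32851 windows, 8.30% held a GAS match, 3.44% an ISRE match and 0.067%, 22 windows, both with at most 10 bases between them. These 22 windows belonged to 21 genes. Besides the 4 members they include Gm12185 and Gm12250, which are themselves IRG gene models. The others include Bst2, Cxcl14, Etv6, Ifitm3, Irf2, Lamp3, Olfr58, Olfr933, Rab10os, Usp17lc and Usp17ld, so the pair is not confined to IRG genes.

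**Figure D1:**
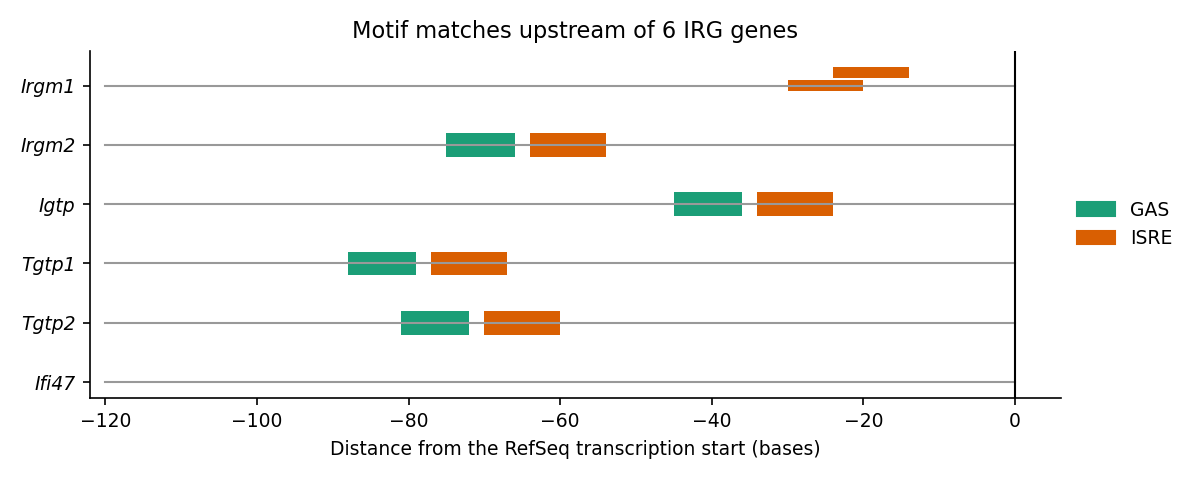
Positions of GAS (green) and ISRE (orange) matches in the 120 bases before the RefSeq transcription start of 6 IRG genes; the horizontal axis is the distance from the start in bases, and the upper Irgm1 bar is raised to show a match that overlaps the other. The paired GAS and ISRE matches of Irgm2, Igtp, Tgtp1 and Tgtp2 have the same order and spacing, at different distances from the start.

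All 7 IRG genes rose with IFNγ/LPS in both lines. In the untreated cells they were weakly transcribed, with group means from 1.64 to 16.5 TPM, and after treatment the means lay between 148 and 1099 TPM. The summed level of the family rose from 34.2 ± 14.1 TPM (SD, n = 3) in Q7-C to 3423 ± 854 in Q7-T, and from 57.9 ± 9.68 in Q111-C to 3792 ± 311 in Q111-T. Its share of all TPM in the table was 0.481% in Q7-T and 0.540% in Q111-T. Igtp, the most abundant member after treatment when each gene is taken alone, ranked 75th of 29428 genes by mean TPM in Q7-T and 65th in Q111-T, from 7548th in Q7-C and 6067th in Q111-C.

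The regulatory member Irgm1, which is needed for control of effector IRG proteins on lysosomes and other membranes, measured 4.53, 9.76 and 7.01 TPM in Q7-C replicates 1, 2 and 3, and 357, 137 and 343 in Q7-T. In Q111-C it measured 13.6, 18.2 and 17.8 TPM, and in Q111-T 318, 302 and 354. The treated and untreated libraries of each line were far apart, and Q7-T replicate 2 was the lowest treated library. Irgm1 had the smallest response of the family in both lines, a log2 fold change of 5.43 (SE 0.261) in Q7-T vs. Q7-C and of 4.40 (SE 0.249) in Q111-T vs. Q111-C.

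Irgm2, a regulatory member of the Golgi, measured 1.25, 2.76 and 0.946 TPM in Q7-C and 191, 74.5 and 178 in Q7-T. In Q111-C its libraries were close together at 4.79, 4.94 and 5.26 TPM, and in Q111-T they were at 253, 175 and 259. All 3 Q111-C libraries were above all Q7-C libraries, while the treated libraries of the lines overlapped. Its log2 fold change was 6.60 (SE 0.394) in Q7 and 5.60 (SE 0.375) in Q111.

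Igtp (Irgm3), the regulatory member of the endoplasmic reticulum and lipid droplets, measured 6.31, 13 and 6.32 TPM in Q7-C and 15.0, 20.8 and 13.6 in Q111-C. After treatment it reached 1159, 964 and 1173 TPM in Q7-T and 1052, 953 and 1121 in Q111-T. It was the member with the least spread, relative to its level, among the Q7-T libraries, and its treated levels in the lines overlapped. Its log2 fold change was 7.23 (SE 0.335) in Q7, the largest of the family there, and 6.09 (SE 0.317) in Q111.

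Iigp1 (Irga6, on chromosome 18 from 60376027 to 60392634, plus strand), the best studied effector, which is loaded early onto the vacuole of Toxoplasma, measured 1.46, 3.07 and 1.79 TPM in Q7-C and 294, 117 and 289 in Q7-T. In Q111-C it measured 2.71, 3.08 and 2.42 TPM, and in Q111-T 472, 452 and 557. Untreated libraries of the lines overlapped, whereas all treated Q111 libraries were above all treated Q7 libraries. It was the only one of the 7 members with a numerically larger response in Q111, a log2 fold change of 7.59 (SE 0.303) against 6.92 (SE 0.295) in Q7.

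The effectors Tgtp1 and Tgtp2 (Irgb6), which encode the same protein, had nearly the same levels. Tgtp1 measured 4.94, 10.1 and 4.60 TPM in Q7-C and 822, 566 and 881 after treatment of that line, and 8.06, 8.40 and 3.71 in Q111-C and 686, 666 and 719 after treatment. Tgtp2 measured 5.30, 9.32 and 5.26 TPM in Q7-C and 859, 460 and 921 in treated Q7 cells, and 8.11, 9.42 and 4.41 in Q111-C and 814, 709 and 859 in treated Q111 cells. The lines overlapped with and without treatment. The log2 fold changes were 7.04 (SE 0.414) in Q7 and 6.78 (SE 0.409) in Q111 for Tgtp1, and 6.96 (SE 0.348) and 6.86 (SE 0.347) for Tgtp2. With the counts of both genes summed, they were 7.0 in Q7 and 6.82 in Q111.

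Ifi47 (Irgd), an effector whose function is less well known, measured 1.29, 2.43 and 1.18 TPM in Q7-C and 191, 119 and 171 in Q7-T. In Q111-C it measured 2.73, 3.90 and 2.90 TPM, and in Q111-T its libraries were the closest together of any member, at 219, 213 and 223. All Q111 libraries were above all Q7 libraries, both untreated and treated. Its log2 fold change was 6.79 (SE 0.291) in Q7 and 6.21 (SE 0.283) in Q111.

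**Figure D2:**
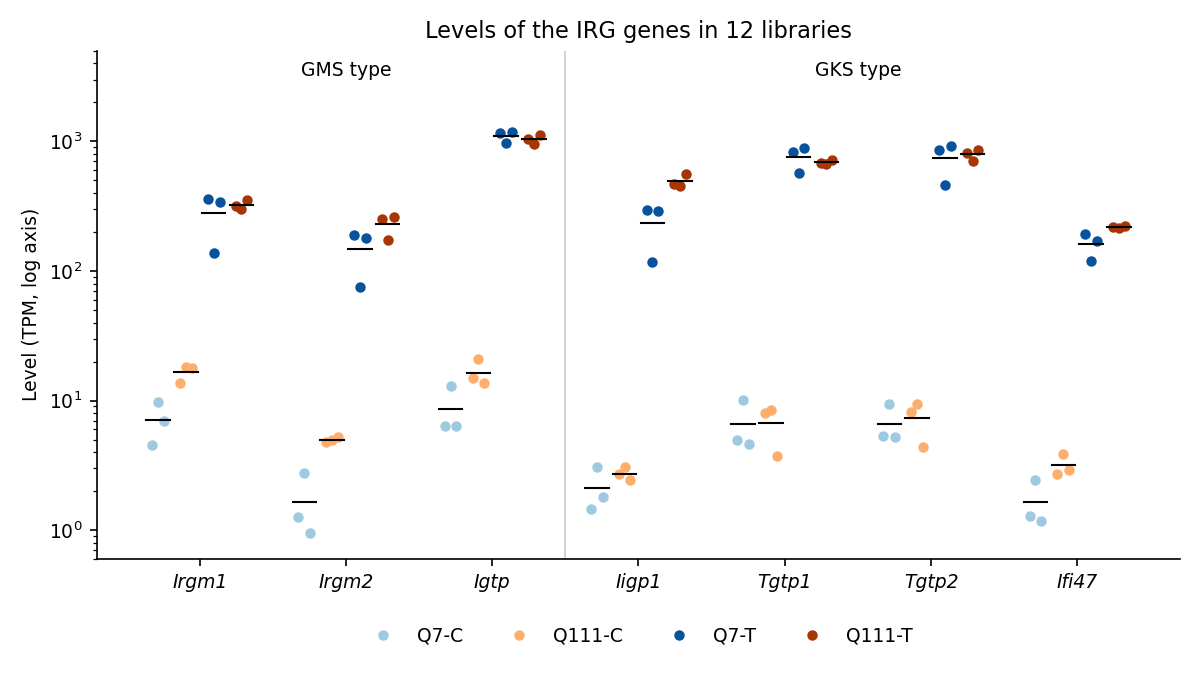
TPM of the 7 IRG genes on a log axis, 1 point per library (3 per group), with the group mean as a black bar and GMS and GKS genes on either side of the grey line. Treated libraries lie at 74.5 TPM or more and untreated ones at 20.8 TPM or less for every gene.

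In edgeR's quasi-likelihood test a gene was called when its Benjamini-Hochberg adjusted p over all genes tested was under 0.05 and it changed at least 2-fold. All 7 members were called higher in Q7-T than in Q7-C, where 2.93% of all genes tested were, with adjusted p from 1.76e-07 to 7.92e-07. All 7 were also called higher in Q111-T than in Q111-C, where 8.28% of all genes were, with adjusted p from 7.97e-08 to 1.42e-06. The median log2 fold change of the members was 6.92 in Q7 and 6.21 in Q111, and that of all genes tested was 0.0033 and -0.005. Treated and untreated libraries did not overlap for any member, against 5.55% of all genes with all Q7-T libraries above all Q7-C libraries and 19.8% in Q111. By size of the log2 fold change the members ranked from 80th (Igtp) to 203rd (Irgm1) of 16127 genes in Q7 and from 68th (Iigp1) to 274th (Irgm1) in Q111. These calls held under all alternatives listed in the closing section.

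The fitted response of every member except Iigp1 was larger in Q7 than in Q111, though none of these differences passed the threshold in the main edgeR fit. The difference of the responses, Q111 minus Q7 on the log2 scale, was -1.03 (SE 0.307) for Irgm1, -1.0 (SE 0.44) for Irgm2 and -1.14 (SE 0.363) for Igtp. Among the GKS members it was 0.68 (SE 0.324) for Iigp1, -0.25 (SE 0.452) for Tgtp1, -0.10 (SE 0.381) for Tgtp2 and -0.58 (SE 0.324) for Ifi47. None of the 7 differences was called in the main edgeR fit, where 4.71% of all genes were called in either direction: the adjusted p was 0.0766 for Irgm1, 0.0967 for Igtp, 0.234 for Irgm2, and from 0.278 to 0.922 for the others. With the replicate number as a block, edgeR called Igtp, at -1.15 with an adjusted p of 0.0477, and 626 of 16127 genes were called. The 3 GMS genes were the only members with an unadjusted edgeR p under 0.05 (0.00602, 0.044 and 0.00885 for Irgm1, Irgm2 and Igtp). DESeq2 called 2 of them, Irgm1 and Igtp, with adjusted p of 0.0146 and 0.0284, and it called 1299 of all 16127 genes in this comparison. The outcome also turned on single libraries: edgeR called both Irgm1 and Igtp without Q7-C replicate 2, the untreated Q7 library in which every member was highest, and Irgm1 alone without Q7-T replicate 2. Over all genes these fits called 557 of 16001 and 998 of 16032. With Q7-C replicate 1, Q7-T replicate 2 and Q111-T replicate 2 all left out, an alternative chosen after seeing the data, the difference of Irgm1 was -1.08 with an adjusted p of 0.0069 and that of Igtp was -0.92 with 0.104. In that fit 1533 of 15631 genes were called.

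**Figure D3:**
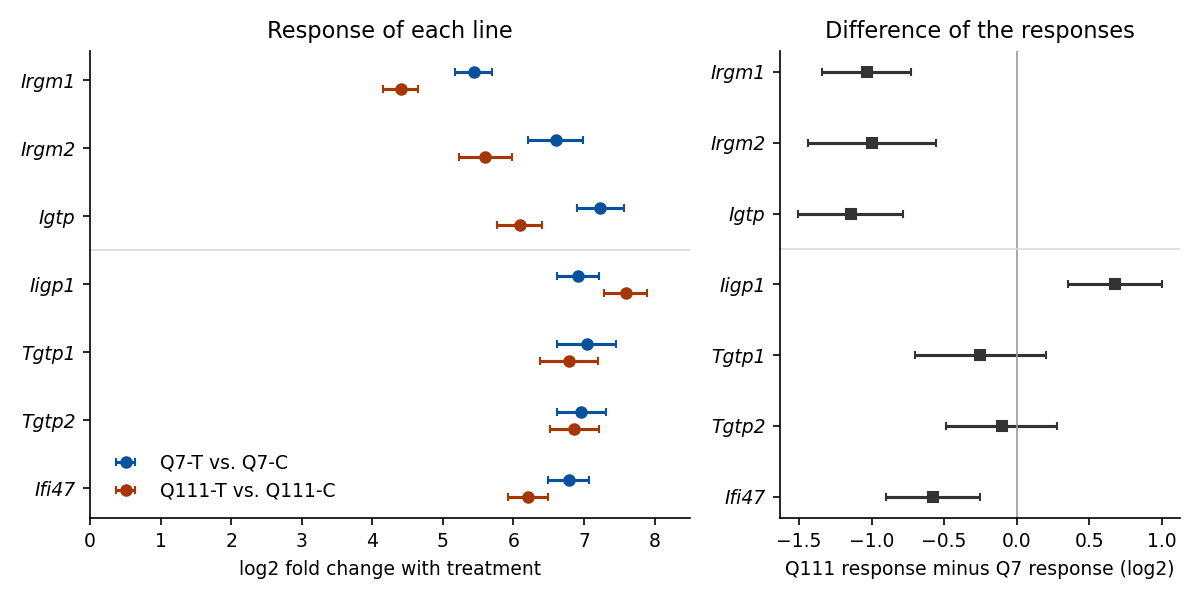
Left, log2 fold change with IFNγ/LPS in Q7 (blue) and Q111 (red) cells; right, the Q111 response minus the Q7 response. Points are edgeR estimates and bars are ± 1 SE (12 libraries in 1 fit); the 3 GMS genes above the grey line sit near -1 in the right panel, and only Iigp1 is above 0.

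Without treatment, 1 member, a GMS gene, was called different between the lines. Irgm2 was called higher in the Q111-C vs. Q7-C comparison, with a log2 fold change of 1.29 (SE 0.319) and an edgeR adjusted p of 0.0122, and 7.62% of all genes tested were called higher in that comparison and 15.2% in either direction, so 1 of 7 members is near the background. Irgm1 also passed the adjusted p (0.00905) but stayed under 2-fold at 0.93 (SE 0.219). Igtp and Ifi47 both differed by 0.64, with adjusted p of 0.103 and 0.0752. The other 3 members were near 0, at 0.08 for Iigp1, -0.27 for Tgtp1 and -0.17 for Tgtp2, and the sign of each of these turned under some alternatives. In TPM, all 3 Q111-C libraries were above all Q7-C libraries for Irgm1, Irgm2, Igtp and Ifi47, 4 of 7 members, beside 38.8% of all genes tested. On the TPM scale the median gene itself was 0.27 (log2) higher in the untreated Q111 line. Untreated Q7 libraries differed among themselves by more than 2-fold for 6 of the 7 members, and the call of Irgm2 was lost without Q7-C replicate 3, when its log2 fold change was just under 1, while without Q7-C replicate 2 Irgm1, Irgm2 and Igtp were all called.

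After treatment, no member was called different between Q111-T and Q7-T, where 24.5% of all genes tested were called in either direction. Iigp1 came closest, with a log2 fold change of 0.76 (SE 0.228), an edgeR adjusted p of 0.0223 and a size under 2-fold; it was called by limma on log2(TPM + 0.5), at 1.19 with an adjusted p of 0.0172, but on the TPM scale the median gene was itself 0.34 higher in Q111-T. The other members lay between -0.52 (Tgtp1) and 0.29 (Irgm2), with adjusted p from 0.141 to 0.851, and Iigp1 was also the only member with an unadjusted p under 0.05; DESeq2 called 0. In TPM, Iigp1 and Ifi47 were higher in all 3 Q111-T libraries than in all Q7-T libraries, 2 of 7 members, beside 46.3% of all genes without overlap in either direction.

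The order of the levels changed with treatment. In Q7-C, Igtp (8.53 TPM), Irgm1 (7.10), Tgtp2 (6.63) and Tgtp1 (6.56) did not differ from their neighbours in that order by more than the spread of the ratio between libraries (1 SD), and they stood above Iigp1 (2.11), Irgm2 (1.65) and Ifi47 (1.64). In Q111-C, Irgm1 (16.5) and Igtp (16.4) were indistinguishable and stood above Tgtp2 (7.31), Tgtp1 (6.72), Irgm2 (5.00), Ifi47 (3.17) and Iigp1 (2.73). Treatment moved Iigp1 from last place in Q111-C to the fourth in Q111-T. In Q111-T the order was Igtp (1042), Tgtp2 (794), Tgtp1 (690), Iigp1 (494), Irgm1 (325), Irgm2 (229) and Ifi47 (218), where only the last neighbours did not differ beyond the spread. In Q7-T it was Igtp (1099), Tgtp1 (756), Tgtp2 (747), Irgm1 (279), Iigp1 (233), Ifi47 (160) and Irgm2 (148), where Tgtp1 and Tgtp2, Iigp1 and Ifi47, and Ifi47 and Irgm2 did not.

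As shares of the summed TPM of the 7 genes, Irgm1 took 21.1 ± 4.17% (SD, n = 3) in Q7-C and 7.84 ± 1.93% in Q7-T, and 28.9 ± 5.78% in Q111-C and 8.56 ± 0.196% in Q111-T. The share of Iigp1 was 6.18 ± 0.407% in Q7-C and 6.57 ± 1.53% in Q7-T, and 4.75 ± 0.24% in Q111-C and 13 ± 0.622% in Q111-T. The 3 Q111-T libraries, at 12.4% or more, were above every other library for this share. Igtp took 33.0 ± 5.63% in Q7-T, where its highest share, 39.5%, was in replicate 2, and 27.5 ± 0.0895% in Q111-T. The balance between the types can be written as the summed TPM of the 4 GKS genes over that of the 3 GMS genes. This ratio was 0.984 ± 0.0872 in untreated and 1.23 ± 0.136 in treated Q7 cells, and 0.527 ± 0.144 in untreated and 1.38 ± 0.0421 in treated Q111 cells. The Q111-C libraries, between 0.367 and 0.648, were below all others, and the Q111-T libraries were above all others, the nearest Q7-T library being at 1.33. Each of the comparisons of Q111-T with Q111-C, Q111-C with Q7-C and Q111-T with Q7-T gave an exact two-sided permutation p of 0.1, the smallest that 3 libraries against 3 can give, and Q7-T with Q7-C gave 0.2. The Q7 groups overlapped only through Q7-T replicate 2 (1.07358) and Q7-C replicate 1 (1.07365), both among the libraries that stood apart. Without either of them, all Q7-T libraries were above all Q7-C libraries.

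**Figure D4:**
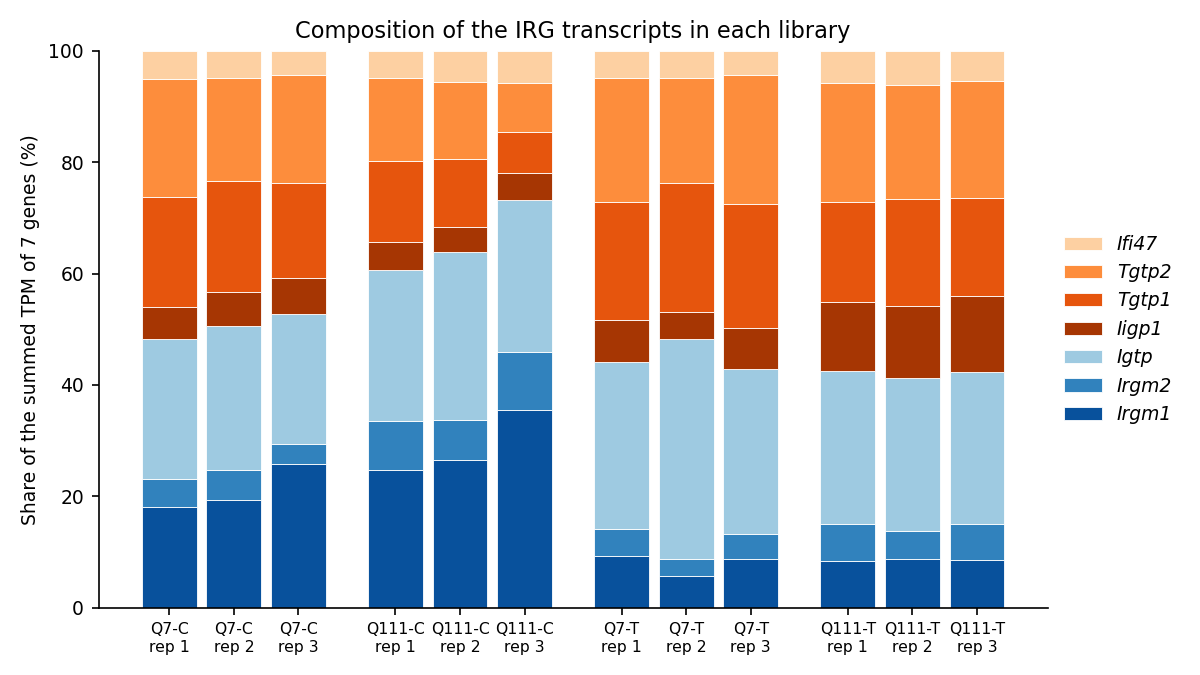
Share of each IRG gene in the summed TPM of the 7 genes (vertical axis, %) in each of the 12 libraries, with GMS genes in blue and GKS genes in orange. GMS genes take their largest part in the Q111-C libraries, and Iigp1 takes 12.4% or more in each Q111-T library.

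The members were not evenly lower in Q7-T replicate 2. Against the mean of the other 2 libraries of its group, on the log2(TPM + 0.5) scale, Irgm1 was at -1.35 there, Iigp1 at -1.31, Irgm2 at -1.30, Tgtp2 at -0.95, Ifi47 at -0.60, Tgtp1 at -0.59 and Igtp at -0.27, while the median over all genes tested was -0.55. In Q7-C replicate 2 all members were above the mean of the other 2 Q7-C libraries, by 0.74 (Irgm1) to 1.03 (Irgm2), with a median over all genes of 0.16. The part that library quality has in these departures was not tested.

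Over the 12 libraries, the genes whose pattern was most like the mean profile of the members were the guanylate-binding proteins Gbp2b (Pearson r = 0.999), Gbp2 (0.998) and Gbp6 (0.997), the gene model Gm43302 (0.997) and the apolipoprotein gene Apol6 (0.997). All points of this correlation share the contrast between treated and untreated libraries, so it is a description only. Gbp2 was more abundant than any IRG gene in Q111-T, at 1664 TPM. In Q7-T the libraries of Gbp2 (1144 ± 307 TPM, SD, n = 3) and Igtp (1099 ± 117) overlapped. The log2 fold changes of the genes most like the members lay between 6.43 and 7.06 in Q7 and between 6.27 and 6.99 in Q111.

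Of 11 further IRG-related gene models, 9 were tested: 6 rose in Q7-T and 8 in Q111-T, beside 2.93% and 8.28% of all genes, and none fell. Of the 9, 7 passed the filter on low values only with their treated libraries, so a gene at a low level throughout could not enter, and these counts and medians are a description. Their median log2 fold change was 5.87 in Q7 and 6.30 in Q111, or 5.06 and 6.29 with F830016B08Rik, whose untreated libraries had at most 9 estimated counts, set at its bound. With treatment that gene was higher by at least 33.4-fold in Q7 and 78.0-fold in Q111, against a floor of 12 estimated counts (3 read pairs) per untreated library. Gm4951 had the largest fitted response in Q111, with 0.224 TPM in Q111-C and 52.5 in Q111-T (log2 fold change 7.91, SE 0.819), and went from 0.206 to 11.7 TPM in Q7 (5.87, SE 0.759). Gm4951 and Gm5431 were the only 2 of the 9 that were called higher in treated Q111 than in treated Q7 cells, with edgeR log2 fold changes of 1.89 (adjusted p 0.0294) and 3.25 (adjusted p 0.00452); they are named after their values were seen, and 2 of 9 is near the 24.5% of all genes called in that comparison. Gm5431 passed the filter only through its Q111-T libraries (2.82 to 5.21 TPM, against 0.249 to 0.521 in Q7-T), so its difference is a description, and the call of Gm4951 was lost when any 1 of the Q111-T libraries was left out. Between Q111-C and Q7-C neither edgeR nor DESeq2 called any of the 9, and none had an unadjusted edgeR p under 0.05. No difference of the responses was called by edgeR, with an unadjusted p under 0.05 for 1 of the 9, and DESeq2 called 1. Irgq, a divergent family member, was at 8.35 TPM in untreated and 8.17 in treated Q7 cells and at 9.79 and 6.86 TPM in Q111 cells, and was not called in any comparison.

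A list of genes of interferon-γ signalling and transcription, not all of which act upstream of the IRG genes, held 16 genes, all tested. In Q7-T 10 of them rose and in Q111-T 12 rose, beside 2.93% and 8.28% of all genes, none fell, and the median log2 fold change was 3.00 in Q7 and 2.48 in Q111; 2 of the 16 passed the filter only with their treated libraries. By the rule for named genes these include Irf8, a partner of IRF1 at ISRE sites, with 6.18 in Q7 and 6.23 in Q111, and Ciita, the switch for MHC class II genes, whose Q111-C libraries had at most 9 estimated counts and which was at least 19.3-fold higher in Q111-T. The transcription factor gene Irf1, chosen after its values were seen, also rose. It measured 15.4 ± 3.74 TPM (SD, n = 3) in untreated and 250 ± 107 in treated Q7 cells, and 43.3 ± 3.86 and 496 ± 96.0 TPM in Q111 cells. It was 1 of 7 genes of the 16 that were called higher in the untreated Q111 line, where 7.62% of all genes were, with a log2 fold change of 1.19 (SE 0.186).

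All 11 guanylate-binding protein genes, which encode large GTPases that follow IRG proteins onto vacuoles, rose in both lines, and their median log2 fold change was 6.87 (Q7) and 6.27 (Q111); 4 of the 11 passed the filter only with their treated libraries. The largest responses in Q111 were those of Gbp5 (7.87, SE 0.677) and Gbp6 (6.99, SE 0.435). The median difference of the responses of these 11 genes, Q111 minus Q7, was -0.65, beside -0.58 for the 7 IRG genes. None of the 11 differences was called by edgeR. Between the treated lines 2 of the 11 were called higher and 2 lower in Q111, beside 24.5% of all genes in either direction. None of the 10 genes of the ubiquitin-like conjugation system that directs IRG and guanylate-binding proteins to vacuoles was called in any of the comparisons, and the median was 0.16 in Q7 and 0.03 in Q111. Of all genes, 2.93% and 8.28% were called higher with treatment, and 15.2% (untreated) and 24.5% (treated) were called between the lines in either direction. Changes under 2-fold passed the edgeR adjusted p for 1 of the 10 in each line with treatment, and between the lines for 2 without and 1 with treatment. DESeq2 called none of them either, and the unadjusted edgeR p was under 0.05 for 1 of the 10 in Q7 and 2 in Q111. Of 3 ubiquitin ligases and adaptors found at vacuoles, 1 rose in each line, the ligase Trim21 with 4.88 (SE 0.203) in Q7 and 3.64 (SE 0.188) in Q111.

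**Figure D5:**
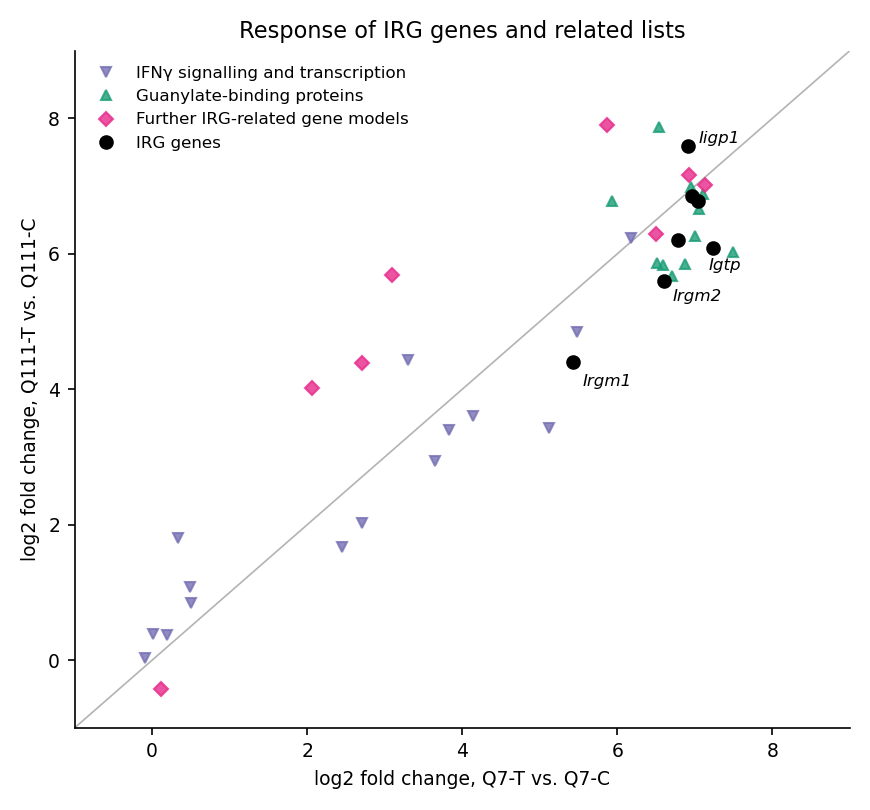
log2 fold change with IFNγ/LPS in Q7 (horizontal axis) and Q111 cells (vertical axis) from edgeR, for the 7 IRG genes (black) and for genes of 3 related lists; the grey line marks equal responses, and F830016B08Rik and Ciita are not drawn because all their libraries in at least 1 untreated group are at or under the floor of 12 counts. The IRG genes lie among the guanylate-binding proteins, with Irgm1, Irgm2 and Igtp below the line and Iigp1 above it.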

How the data were processed

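RNA-seq was done on poly(A) RNA of 12 libraries. Per the labels, reads were aligned to GRCm38 with HISAT2 and assembled with StringTie; their versions are not given in the sources used here. The deposited table holds estimated counts and TPM per gene; which of the authors' steps gave the estimated counts is not stated, and low values favour multiples of 4, so a read pair was taken as 4 counts. Estimated counts were rounded and fitted over all genes with edgeR 4.0.16 (glmQLFit, TMM scaling, 1 mean per group); a call needed at least a 2-fold change with a Benjamini-Hochberg adjusted p under 0.05. Levels are TPM, which the authors scaled for length. The fit was tested on simulated data. Alternatives were DESeq2 1.42.0, limma 3.58.1 on log2(TPM + 0.5), other scalings and filters, and each library left out. All 7 members are named; from each related list up to 2 called genes with the highest response in Q111 are named, and others are marked as chosen later; 1 gene of these lists enters their counts but is not reported here. The members and lists were chosen with earlier results of these data known. Sequences came from GENCODE M21 and RefSeq (GRCm38.p6).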

Additional observations from a re-analysis of the deposited data

Results flagged for a closer look

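By edgeR's quasi-likelihood test over all genes, no IRG gene was called for a response that differed between the lines, though DESeq2 called Irgm1 and Igtp. Of all 16127 genes, edgeR called 760 and DESeq2 1299 in this comparison. Trim21 and Irf2, genes of the related lists, were called by edgeR. The Q111 response minus the Q7 response was -1.24 on the log2 scale for Trim21 (adjusted p 0.0129) and 1.47 for Irf2 (adjusted p 0.0238). Trim21 rose in both lines, from 0.493 ± 0.145 to 13.5 ± 5.72 TPM (SD, n = 3) in Q7 and from 4.26 ± 0.356 to 49.9 ± 5.91 TPM in Q111, and was called higher in the untreated Q111 than in the untreated Q7 line. Its call for the difference was lost with limma at each pseudocount, where the value was -0.33, -0.93 and 0.077 at 0.5, 0.1 and 1 TPM (limma adjusted p from 0.354 to 0.949), so that the sign turned in the last case; it held in the other 20 of 23 alternatives. Irf2, which encodes an antagonist of IRF1 at ISRE sites, was at 3.89 ± 0.694 TPM (SD, n = 3) in untreated and 4.61 ± 2.35 in treated Q7 cells, and at 5.88 ± 0.505 and 19.0 ± 1.36 TPM in Q111 cells, so that it was called with treatment in Q111 and not in Q7. The call of Irf2 was lost in 9 of 23 alternatives, without a change of sign: with limma at each pseudocount (limma adjusted p from 0.072 to 0.136), with the replicate block (edgeR adjusted p 0.0538), and without Q7-C replicate 3, any 1 of the Q111-C libraries or Q111-T replicate 2 (edgeR adjusted p from 0.0598 to 0.0772).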

How the results depend on the processing

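The calls of the 7 members with treatment kept their direction and their side of the threshold in both lines, in 167 of 167 pairs of a member with 1 of 24 alternatives in each. The other comparisons were less stable, and the cause was not tested. The number of members called in Q111-C vs. Q7-C was 1, or 2, 3 and 2 with limma on log2(TPM + 0.5), log2(TPM + 0.1) and log2(TPM + 1), and ranged from 0 to 3 when 1 library was left out. In Q111-T vs. Q7-T it was 0, or 1 with limma at each pseudocount. For the difference of the responses it was 0, or 2 with DESeq2, from 0 to 2 when 1 library was left out, and 1 without the 3 libraries that stand apart; over all genes that number was 760, or 1299 with DESeq2 and 1533 without the 3 libraries. Replicate numbers did not pair the samples (correlations of same-numbered libraries from -0.58 to 0.45); with the replicate block, 1 member (Igtp) was called for the difference of the responses, and the other member counts were the same. The GKS to GMS ratio, taken on TMM-scaled counts in place of TPM, was 0.884 in untreated and 1.44 in treated Q7 cells, and 0.457 and 1.65 in Q111 cells; on this scale the Q7-T libraries (1.37 to 1.52) did not overlap the Q7-C libraries (0.765 to 0.986), with an exact permutation p of 0.1 in place of 0.2.

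Small differences changed sign. In Q111-T vs. Q7-T, limma at pseudocounts 0.5, 0.1 and 1 gave 0.34, 0.34 and 0.34 for Irgm1 and 0.15, 0.15 and 0.15 for Tgtp2; leaving out 1 library gave from -0.29 to 0.0029 for Irgm1 and down to -0.0066 for Ifi47. In Q111-C vs. Q7-C, the same limma settings gave 0.040, 0.042 and 0.039 for Tgtp1 and 0.12, 0.12 and 0.11 for Tgtp2. Leaving out 1 library gave from -0.49 to 0.11 for Tgtp1, from -0.34 to 0.13 for Tgtp2 and from -0.052 to 0.40 for Iigp1, which was -0.0017 without the 3 libraries. The difference of the responses of Tgtp2 was 0.030, 0.025 and 0.036 with limma and from -0.38 to 0.085 with 1 library left out. A called result also turned: the difference of the responses of Trim21, -1.24 in edgeR, was 0.077 with limma on log2(TPM + 1). The 3 libraries per group limit what can be told apart: the smallest exact p of 3 against 3 is 0.1, and SEs of the difference of the responses were 0.307 to 0.452. The lowest estimated count of a member in any library was 123, for Ifi47 in Q7-C replicate 1, and the part of depth in these results was not tested.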
